A study of Mus musculus with 4 samples.

Results

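Alpha and beta tubulin, the building blocks of microtubules, are each encoded by several genes called isotypes. The 10 isotype genes described here were taken by name out of the 29224 genes in the table, 5 of them alpha (Tuba1a, Tuba1b, Tuba1c, Tuba4a and Tuba8) and 5 beta (Tubb2a, Tubb2b, Tubb3, Tubb4a and Tubb5), and all 10 had counts high enough to be tested. RNA came from cells that were pulled from the cerebral cortex of mice at postnatal day 5 with magnetic beads against GLAST, a glutamate transporter of the astrocyte surface. The paper describes these cells as astrocytes, but the fraction also held RNA of other cell types, as given below. The control libraries, Ezh2 f/f 1 and 2, came from mice with floxed Ezh2 alleles; the knockout libraries, Ezh2 cKO 1 and 2, came from floxed mice that also carried Aldh1l1-icre, a Cre recombinase driven by an astrocyte gene. Ezh2 encodes the histone methyltransferase of Polycomb repressive complex 2. The comparison is of the RNA of this bead fraction between the genotypes. Neither the number of mice behind a library nor their sex is given in the sources used here, and no source states that the 2 libraries of a genotype came from separate animals, so p-values measure the spread between these libraries, which may be technical.

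Microtubules grow from dimers of 1 alpha and 1 beta tubulin, and the dimer binds GTP. Most of each protein is shared between isotypes, and the isotypes differ most in a glutamate-rich tail at the carboxyl end, which lies on the outside of the microtubule and is where enzymes add or remove glutamates and the final tyrosine. In the developing brain Tuba1a is the main alpha isotype of neurons that migrate and grow axons, Tubb2b is used by radial glia and young neurons, and Tubb3 is widely used as a marker of neurons. Mutations in several of these genes cause malformations of the human cortex.

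The ends of the coding sequences are shown because the tail that they encode is what tells the isotypes apart. They are given for Tuba4a, Tuba8 and the 5 beta genes. Each is the last 75 bases of the coding sequence in the GENCODE M21 annotation (GRCm38), read 5′ to 3′ on the coding strand, with the stop codon at the end and the glutamate codons (GAA and GAG) in capitals.
Tuba4a: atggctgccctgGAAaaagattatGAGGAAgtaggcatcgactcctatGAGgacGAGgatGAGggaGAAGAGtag
Tuba8: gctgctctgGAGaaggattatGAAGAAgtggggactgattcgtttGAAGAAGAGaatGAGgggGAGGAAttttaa
Tubb2a: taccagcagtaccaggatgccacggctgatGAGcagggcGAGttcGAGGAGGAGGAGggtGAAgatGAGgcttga
Tubb2b: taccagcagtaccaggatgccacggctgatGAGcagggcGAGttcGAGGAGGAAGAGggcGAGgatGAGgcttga
Tubb3: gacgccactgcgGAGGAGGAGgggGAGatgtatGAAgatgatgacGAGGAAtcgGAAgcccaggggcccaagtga
Tubb4a: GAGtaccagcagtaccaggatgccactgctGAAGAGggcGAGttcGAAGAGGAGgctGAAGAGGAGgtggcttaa
Tubb5: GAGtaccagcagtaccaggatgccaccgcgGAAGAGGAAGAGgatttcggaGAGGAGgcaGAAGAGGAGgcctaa

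The ends of Tuba4a and Tuba8 hold 8 and 9 glutamate codons, and the beta ends hold between 8 and 10. The last codon before the stop is a glutamate codon in Tuba4a and ttt in Tuba8. Over the printed bases Tubb2a and Tubb2b are 96.0% identical, whereas Tubb3 is 45.3% to 52.0% identical to the other beta genes. Over the whole coding sequence Tuba1a is 98.3% identical to Tuba1b, 97.1% to Tuba1c, 84.7% to Tuba4a and 78.8% to Tuba8, and Tubb2a is 96.5% identical to Tubb2b.

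The similarity limits what short reads can tell. In GENCODE M21, 83.1% of all 50-base windows of the Tuba1b transcript occur in the transcript of some other gene on either strand, against 75.5% for Tuba1a, 61.0% for Tuba1c, 49.6% for Tubb2a and 39.3% for Tubb2b. The figures fall to 73.0%, 65.8%, 53.4%, 36.9% and 27.7% for windows of 100 bases. Tuba4a shared 48.8% of its 50-base windows, nearly all of them with Stk16 on the other strand, and Tuba8 shared 14.7%. Tubb3 shared 0 windows of either length, and Tubb4a and Tubb5 shared under 0.2% of those of 50 bases. The read length and the treatment of reads that match several genes are not given in the sources used here, so the levels of Tuba1a, Tuba1b, Tuba1c, Tubb2a and Tubb2b are uncertain by an amount that was not tested.

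Positions in the deposited table are on a build that its files do not name. The submitters' processing notes name mm9, but whether the positions are on mm9 was not checked. Of 28799 genes matched to GENCODE M21 on GRCm38, 581 had the same coordinates there. In the deposited coordinates Tuba1b (chr15:98829306-98832446) and Tuba1a (chr15:98847718-98851584) lay on the minus strand with 15.3 kb between them. Tuba1c (chr15:98927772-98935991) followed on the plus strand, 76.2 kb further on. Tubb2a (chr13:34258257-34261990) and Tubb2b (chr13:34310731-34314449) lay on the minus strand with 48.7 kb between them. The others lay elsewhere, Tuba4a at chr1:75190872-75196509 (minus), Tuba8 at chr6:121187655-121203813 (plus), Tubb3 at chr8:124138163-124148754 (plus), Tubb5 at chr17:36144813-36149198 (minus) and Tubb4a at chr17:57387066-57394782 (minus).

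Total counts ranged from 16273308 to 17522152 a library. The 10 tubulin genes took 2.47% of all counts in each Ezh2 f/f library and 1.57% in each Ezh2 cKO library. Ezh2 itself had 434 and 327 counts in the controls against 211 and 164 in the knockouts (log2 fold change -1.11 ± 0.16, adjusted p = 3.26e-05). A log2 fold change above 0 means a higher level in the knockout libraries, ± is the standard error for a log2 fold change and the SD of 2 libraries elsewhere, and adjusted p-values come from the quasi-likelihood test of edgeR with Benjamini-Hochberg adjustment over all 16793 genes tested, with 0.05 as the threshold.

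The isotype genes did not move as one. Tuba4a, Tuba8, Tuba1b, Tubb4a and Tubb2a were higher in Ezh2 cKO, and Tubb2b, Tubb5, Tuba1a, Tubb3 and Tuba1c were lower. All 10 passed the threshold, in a comparison in which 68.4% of all genes tested passed it, 34.7% as higher and 33.6% as lower. Of the 10, 5 changed by at least 2-fold, against 33.0% of all genes. Tuba8 passed the filter on low counts only through the Ezh2 cKO libraries, and a gene kept in that way had to differ. The 5 alpha genes divided into 3 higher and 2 lower, with a median log2 fold change of 1.01, and the 5 beta genes into 2 higher and 3 lower, with a median of -0.71. Without Tuba8 the alpha genes were 2 higher and 2 lower, with a median of 0.19. The median was -0.20 over all 10, -0.63 without Tuba8 and 0.02 over all genes tested. Levels in CPM (counts scaled to library size) did not overlap between genotypes for any of the 10, as was the case for 84.3% of genes tested.

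**Figure D1:**
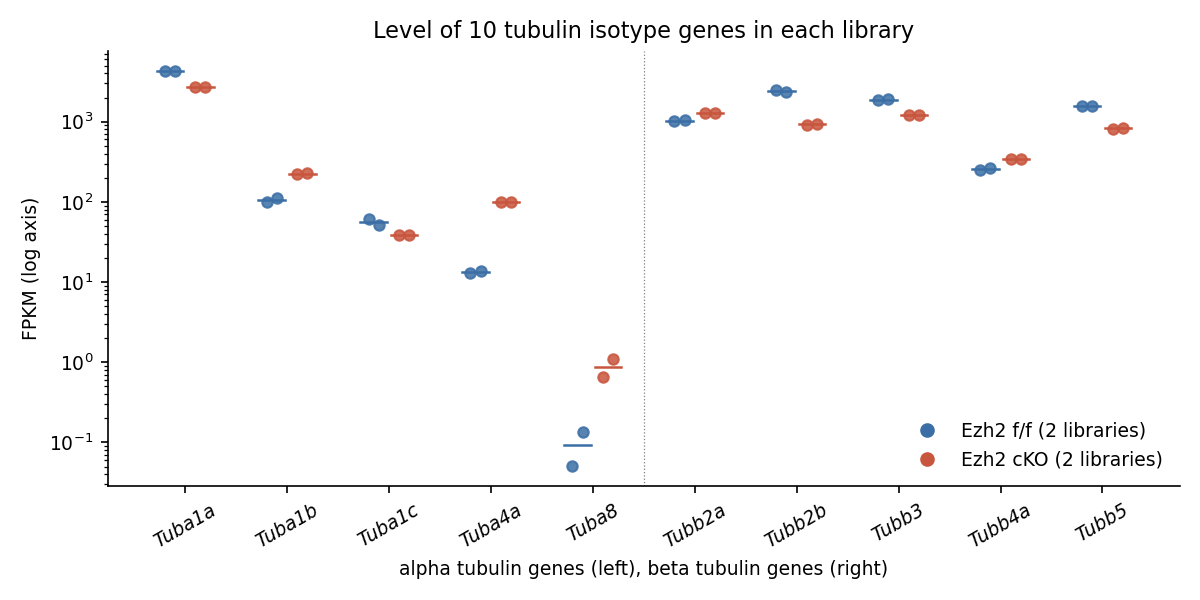
FPKM (counts scaled to gene length and library size, log axis) of the 10 tubulin genes in each library; points are libraries (2 Ezh2 f/f in blue, 2 Ezh2 cKO in red) and lines are group means. Tuba1a stood highest in every library, Tuba4a rose from about 13.4 to 99.2 FPKM, and the beta genes drew closer together in Ezh2 cKO.

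Tuba1a carried nearly all of the alpha tubulin RNA as counted. Its counts were 135905 and 127303 in the controls against 84873 and 80517 in the knockouts. Both Ezh2 cKO values lay below both controls, and the mean fell from 8029 ± 102 to 4731 ± 118 CPM (log2 fold change -0.76 ± 0.06, adjusted p = 3.79e-08). In FPKM, which also scales to gene length, it had the highest level of all genes in the Ezh2 f/f libraries (mean 4320) and was number 4 in Ezh2 cKO (mean 2697). FPKM allows genes to be set side by side only within the limit given above for shared windows.

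Tuba1b, whose product is nearly the same protein and which is used broadly in dividing and non-dividing cells, moved the other way. Its counts were 3241 and 3425 in the controls against 7258 and 7079 in the knockouts. The libraries of each genotype were close together, and the mean rose from 204 ± 19.9 to 410 ± 2.18 CPM (log2 fold change 1.01 ± 0.09, adjusted p = 2.82e-07). Tuba1a was 43.6 and 38.7 times as high as Tuba1b by FPKM in the control libraries, and 12.2 and 11.8 times in Ezh2 cKO. Both genes share most of their 50-base windows with other genes, so this ratio carries the limit given above. A long noncoding gene, Gm41396, overlaps Tuba1b by 241 bases on the other strand and had between 4 and 50 counts. The 4 pseudogenes whose deposited protein annotation names Tuba1b took 1306 and 1093 counts in the controls against 893 and 849 in the knockouts, which is 40.3% and 31.9% of the counts of Tuba1b itself in the controls but 12.3% and 11.99% in the knockouts. Gene and pseudogenes together had 4547 and 4518 counts against 8151 and 7928.

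Tuba1c, the third gene of the chromosome 15 group, had 2445 and 1937 counts in the controls against 1542 and 1463 in the knockouts. The control libraries differed from each other by more than the Ezh2 cKO libraries did, but lay above both (log2 fold change -0.63 ± 0.10, adjusted p = 6.27e-05). Of the 3 genes of that group, 1 rose and 2 fell.

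Tuba4a, an alpha isotype whose gene encodes no final tyrosine, changed most among the well-counted members. It had 849 and 830 counts in the controls against 6332 and 6158 in the knockouts, which are 51.3 ± 2.2 and 357 ± 2.63 CPM, a 6.97-fold difference (log2 fold change 2.80 ± 0.09, adjusted p = 4.14e-11). By FPKM its mean rose from 13.4 to 99.2, and it passed from place 3926 to place 493 among all genes. Tuba4a shares 1379 bases with Stk16, a kinase gene on the opposite strand, and whether the counting used strand is not given. Stk16 had 949 and 892 counts in the controls against 1442 and 1262 in the knockouts, and the part of the shared bases in the result for Tuba4a was not tested.

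Tuba8, the most divergent alpha member, was close to the limit of detection. It had 2 and 5 counts in the controls against 26 and 41 in the knockouts. The groups did not overlap, and the ratio of the summed counts, 67 to 7, was 8.98 after scaling to library size, with an exact 95% interval of 4.13 to 23.2 that covers counting error only. The fitted log2 fold change was 3.12 ± 0.54 (adjusted p = 1.55e-04); it was 3.94 without Ezh2 f/f 2 and 2.56 without Ezh2 f/f 1.

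Among the beta genes, Tubb2a and Tubb2b, which lie 48.7 kb apart on chromosome 13, went in opposite directions. Tubb2b had 99395 and 88564 counts in the controls against 36119 and 36045 in the knockouts. Its level was 2.77 times as high in the controls (5728 ± 130 CPM) as in Ezh2 cKO (2065 ± 22.5 CPM), which was the largest fall among the 10 (log2 fold change -1.47 ± 0.06, adjusted p = 2.46e-10). Tubb2a, a beta isotype of neurons that remains in use in the adult brain, had 28645 and 27406 counts in the controls against 36112 and 34517 in the knockouts. The difference was small but larger than the spread between libraries, at 1711 ± 47.4 against 2020 ± 39.6 CPM (log2 fold change 0.24 ± 0.07, adjusted p = 0.00539). In limma on log2(FPKM + 1) with no filter it did not pass (log2 fold change 0.32, adjusted p = 0.0707). The ratio of Tubb2a to Tubb2b by FPKM was 0.411 and 0.441 in the controls against 1.42 and 1.36 in the knockouts. By FPKM the order of the pair was thus turned round in both knockout libraries. Without scaling to gene length it was not. Tubb2b then had 36119 counts against 36112 for Tubb2a in Ezh2 cKO 1, and 36045 against 34517 in Ezh2 cKO 2.

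Tubb5, a beta isotype of most tissues and of dividing cells, had 92201 and 85463 counts in the controls against 47216 and 45851 in the knockouts. The mean fell from 5419 ± 28.7 to 2662 ± 22.4 CPM (log2 fold change -1.03 ± 0.06, adjusted p = 3.81e-09). Tubb3, the neuronal isotype, had 60862 and 57681 counts in the controls against 39585 and 37613 in the knockouts (log2 fold change -0.71 ± 0.06, adjusted p = 2.29e-07). Both genes share few or no windows with other transcripts, so their levels do not carry the limit given for the Tubb2a and Tubb2b pair. Tubb4a, a beta isotype of neurons and myelinating cells, had 9819 and 9474 counts in the controls against 13395 and 12813 in the knockouts, and rose from 589 ± 19.8 to 750 ± 14.3 CPM (log2 fold change 0.35 ± 0.08, adjusted p = 0.00100).

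**Figure D2:**
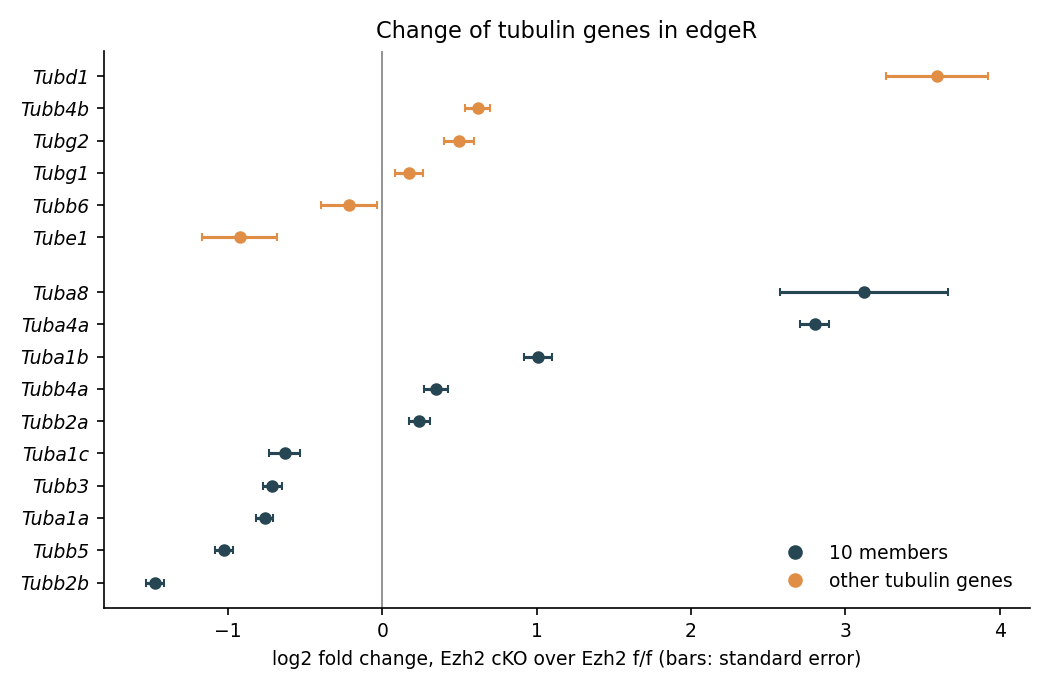
Log2 fold change (Ezh2 cKO over Ezh2 f/f, edgeR) of the 10 members and of the 6 other tubulin genes that could be tested; bars are standard errors. Tuba4a at 2.80 and Tubb2b at -1.47 are the extremes among the members with more than 100 counts in each library.

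Added up, the tubulin level was lower in both knockout libraries than in either control for both subunits. The 5 alpha genes summed to 4475 and 4517 FPKM in the controls against 3078 and 3043 in the knockouts, 31.9% less. The 5 beta genes summed to 7181 and 7156 FPKM in the controls against 4591 and 4606 in the knockouts, 35.8% less. The beta sum was 1.60 and 1.58 times the alpha sum in the control libraries, and 1.49 and 1.51 times in Ezh2 cKO. How reads that match several genes were treated is not known, and its part in these sums and in the shares below was not tested. These sums and the shares below were compared by an exact two-sided permutation test over the 4 libraries, which cannot give a p below 0.33 in this design. Both sums and the ratio of the sums gave that smallest value.

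The makeup of each sum differed as well. For 8 of the 10 shares the genotypes did not overlap, which gives the smallest p that the design allows. CPM levels of 84.3% of all genes tested did not overlap either, so this count is not particular to the tubulin genes. Tuba1a made up 96.1 ± 0.059% of the alpha sum in the controls and 88.1 ± 0.186% in the knockouts, Tuba1b went from 2.34 ± 0.198% to 7.35 ± 0.128%, and Tuba4a from 0.299 ± 0.0088% to 3.24 ± 0.05%. Tuba1c held 1.26% in both, and its libraries overlapped. Tuba8 stayed under 0.04% in every library. These are shares of RNA, and protein was not measured in these libraries.

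In the beta sum, Tubb2a went from 14.4 ± 0.338% to 28.0 ± 0.198% and Tubb2b from 33.8 ± 0.907% to 20.1 ± 0.471%. Tubb4a went from 3.58 ± 0.11% to 7.52 ± 0.049%, and Tubb5 from 22.0 ± 0.024% to 17.9 ± 0.074%. Tubb3 made up 26.2 ± 0.440% in the controls and 26.4 ± 0.298% in the knockouts. Its libraries overlapped (exact permutation p = 0.667), while its level fell along with the sum. The paper measured TUJ1, the protein of Tubb3, by western blot at a later age and reports no significant difference between genotypes. That is protein at another age and from other samples, so it was not set against this RNA level.

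**Figure D3:**
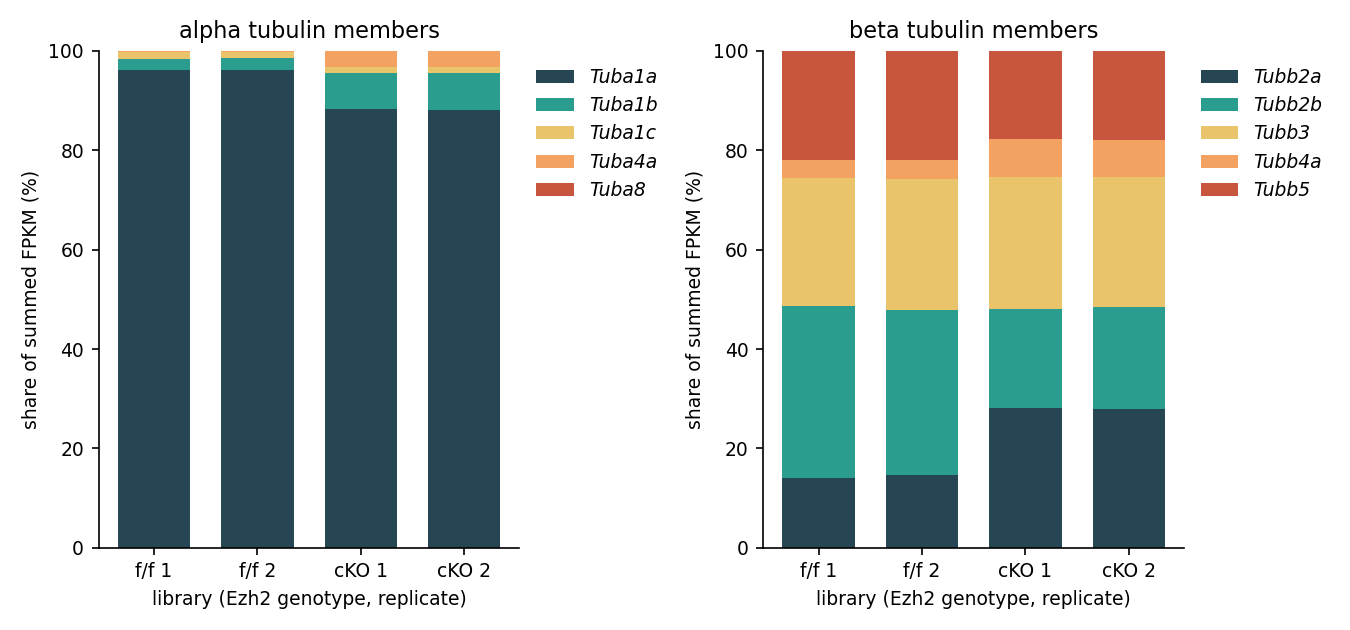
Share of each gene in the summed FPKM of the 5 alpha genes (left) and of the 5 beta genes (right), as stacked bars for each library (share in percent). Tuba8 is too low to be seen; the Tuba1b and Tuba4a layers are thicker in both Ezh2 cKO libraries, and Tubb2a takes up 28.2% and 27.9% there against 14.1% and 14.6% in Ezh2 f/f.

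By mean FPKM the order in Ezh2 f/f was Tuba1a, Tubb2b, Tubb3, Tubb5, Tubb2a, Tubb4a, Tuba1b, Tuba1c, Tuba4a and Tuba8. In Ezh2 cKO it was Tuba1a, Tubb2a, Tubb3, Tubb2b, Tubb5, Tubb4a, Tuba1b, Tuba4a, Tuba1c and Tuba8. No neighbours in either order overlapped between their 2 libraries. The narrowest step by ratio in Ezh2 cKO was between Tubb2a (1285 and 1294 FPKM) and Tubb3 (1207 and 1223 FPKM). Tubb2b dropped from place 5 to place 20 among all genes and Tubb5 from place 12 to 29, whereas Tubb2a moved from place 22 to 14.

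In a bulk library, fewer cells of a type and less RNA per cell cannot be told apart, and the bead fraction held RNA of several cell types. Of all genes tested, 34.7% were higher in Ezh2 cKO and 33.6% were lower. Most markers of young neurons were lower in Ezh2 cKO and most of those of mature neurons were higher. Of 12 young neuron markers 9 were lower and 1 was higher, with summed levels of 1732 and 1865 FPKM in the controls against 1466 and 1509 in the knockouts; among them Dcx, which encodes a microtubule-binding protein of migrating neurons, changed by -1.49 ± 0.09 and the transcription factor Sox11 by -2.99 ± 0.10 on the log2 scale. Of 12 mature neuron markers 10 were higher and 0 lower, with sums of 281 and 308 FPKM against 1239 and 1227; among them the synaptic gene Snap25 changed by 1.79 ± 0.10 and Rbfox3 by 0.58 ± 0.08. Their part in the tubulin results was not tested.

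Glial markers moved too, in the comparison where 34.7% of all genes tested were higher and 33.6% were lower. Of 12 astrocyte markers 10 were higher and 0 lower, with sums of 129 and 140 FPKM in Ezh2 f/f against 627 and 567 in Ezh2 cKO. In every library of both genotypes the sum of the astrocyte markers was below that of either neuron list. The lists hold different genes, so these sums do not rank the cell types by amount. Among the astrocyte markers Gfap rose by 3.77 ± 0.12 and Slc1a3, which encodes GLAST, by 1.59 ± 0.09 on the log2 scale. Aldh1l1 was at -0.15 ± 0.10 (adjusted p = 0.175). All 7 tested oligodendrocyte markers were higher (sums of 13.3 and 16.7 FPKM against 146 and 128), among them Mbp, with Opalin at 0 in both control libraries and Mobp at 0 in Ezh2 f/f 1. All 6 oligodendrocyte precursor markers (51.2 and 51.1 FPKM against 179 and 157) and all 8 microglia markers (46.8 and 48.2 FPKM against 138 and 125) were higher as well. The 5 ependymal and choroid markers, of which 1 was higher and 3 were lower, summed to 313 and 615 FPKM in the controls and to 5.91 and 5.52 FPKM in the knockouts. Their log2 fold changes ran from -10.1 to 3.05 with a median of -0.96, so the sum does not stand for each gene. Of 8 cycling markers 6 were lower and 0 higher (sums of 46.4 and 40.7 FPKM against 33.9 and 32.4), and of 8 neural progenitor markers 3 were higher and 5 lower (253 and 283 FPKM against 456 and 403). Neither the rise of Tuba4a and Tubb4a nor the fall of Tubb2b and Tubb5 was tested against these lists.

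Of 10 other tubulin genes, 9 were in the table and 6 could be tested. Tubb4b, a beta isotype of most tissues and of cilia, had 4955 and 4710 counts in the controls against 7964 and 7861 in the knockouts (log2 fold change 0.62 ± 0.08, adjusted p = 1.11e-05). Adding it and the other beta genes to the beta sum left that sum 34.0% lower in Ezh2 cKO. Tubb6, a beta isotype that is divergent in sequence, had between 168 and 262 counts and did not pass (-0.21 ± 0.18). Of the gamma tubulins, which seed new microtubules, Tubg2 rose by 0.50 ± 0.10 and Tubg1 did not pass (0.17 ± 0.09).

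The remaining tubulins are scarce. Delta tubulin (Tubd1), a protein of centrioles, had 15 and 6 counts in the controls against 125 and 147 in the knockouts (log2 fold change 3.59 ± 0.33, adjusted p = 3.39e-07). Like Tuba8, it passed the filter on low counts only through the knockout libraries. Its partner epsilon tubulin (Tube1) had 93 and 82 counts against 43 and 55 (-0.93 ± 0.24, adjusted p = 0.00390). Thus 3 of the 6 were higher and 1 was lower, with a median of 0.34, against 34.7% higher, 33.6% lower and a median of 0.02 for all genes; without Ezh2 cKO 1 the count of lower genes was 0, and without Ezh2 f/f 2 it was 2. The 3 of 6 and the median of 0.34 include Tubd1, which was kept only through the knockout libraries. With Tubd1 set aside, Tubb4b and Tubg2 were higher and Tube1 was lower. Tubb6 and Tubg1 did not pass, and Tubg1 (0.17) was then the gene in the middle. Tuba3a, Tuba3b and Tubb1 had at most 5 counts in any library.

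The 14 alpha pseudogenes together had 1497 and 1284 counts in the controls against 968 and 920 in the knockouts, which is between 0.962% and 1.05% of the counts of the 5 alpha members in every library. Most of these counts were in the pseudogenes of Tuba1b given above. In an alternative chosen after the data were seen, pseudogenes whose deposited protein annotation was matched to a member were added to that member. The other pseudogenes were left out. The Tuba1b share of the alpha sum was then 3.46 ± 0.106% in the controls and 8.47 ± 0.126% in the knockouts, in place of 2.34% and 7.35%. The 5 beta pseudogenes had between 66 and 78 counts.

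New tubulin chains are folded by the chaperonin TRiC (the Cct genes and Tcp1) with prefoldin, and are then joined into dimers by the tubulin cofactors. Genes of this route were mostly lower: of 21 tested, 18 were lower, 1 was higher and 2 did not pass, against 33.6% of all genes lower, and the median log2 fold change was -0.39 against 0.02 for all genes. The count of lower genes was 11 without Ezh2 cKO 2. Cct3 (-0.85 ± 0.08, adjusted p = 6.82e-07) and Cct2 (-0.81 ± 0.08, adjusted p = 1.14e-06) had the smallest p among those that fell, with Cct2 at 151 and 149 FPKM in the controls against 86.9 and 94.4 in the knockouts. Pfdn5, a prefoldin subunit with the highest mean FPKM of the list over all 4 libraries, had 133 and 136 FPKM against 115 and 102 and was also lower (adjusted p = 0.00227). The gene that rose was Tbcc, whose product releases the finished dimer (344 and 279 counts against 535 and 513, log2 fold change 0.66 ± 0.12).

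Of 22 tested enzymes that modify tubulin, 8 were higher, 8 were lower and 6 did not pass, with a median of -0.07, which is close to the 34.7% higher and 33.6% lower of all genes; the count of higher genes was 5 without Ezh2 cKO 1. Ttll7, a ligase that adds glutamates to the beta tail, had 162 and 126 counts in the controls against 817 and 873 in the knockouts (2.46 ± 0.13, adjusted p = 1.88e-09), and Sirt2, a deacetylase of alpha tubulin, rose by 1.22 ± 0.10. Ttll3, which adds glycines to tubulin, fell from 1469 and 1276 counts to 250 and 222 (-2.63 ± 0.11, adjusted p = 2.16e-10); it overlaps Arpc4 on the same strand by 1189 bases, and Arpc4 had between 2127 and 2628 counts.

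Vash2, a carboxypeptidase that removes the final tyrosine of alpha tubulin, had 2411 and 2262 counts in the controls against 484 and 402 in the knockouts (-2.49 ± 0.11, adjusted p = 3.90e-10). Svbp, the small partner protein of the vasohibins and the gene of the list with the highest mean FPKM over all 4 libraries, went from 74.8 and 80.7 FPKM to 31.2 and 28.9 (-1.45 ± 0.10, adjusted p = 1.69e-08). Further genes are named here after their values were seen. Vash1, the other vasohibin, was lower (-0.72 ± 0.10, adjusted p = 1.87e-05). Ttl, the ligase that puts the tyrosine back, did not pass (-0.10 ± 0.09, adjusted p = 0.308). Atat1, which acetylates alpha tubulin, was lower (-1.13 ± 0.09, adjusted p = 6.28e-08), and Hdac6, which removes the acetyl group, did not pass (-0.18 ± 0.10, adjusted p = 0.119).

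Of 10 genes of microtubule nucleation, 1 was higher, 4 were lower and 5 did not pass, with a median of -0.22, against 34.7% higher and 33.6% lower of all genes. The gamma tubulin complex genes Tubgcp2 (-1.17 ± 0.09) and Tubgcp3 (-0.89 ± 0.10) fell, and Tubgcp4, with 66 and 67 counts against 138 and 137, rose by 0.95 ± 0.20. Tubgcp2 and Tubgcp4 overlap genes on the other strand. Mzt2, the highest of the list by FPKM, did not pass (-0.03 ± 0.11).

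Cells that hold too much free tubulin destroy tubulin mRNA while it is translated. The factor Ttc5 recognises the start of the new chain and, through Scaper and Cnot11, brings in a deadenylase complex. The coding sequences all opened alike, with atgcgtgagtgc in Tuba1a, Tuba1b and Tuba1c, atgcgcgagtgc in Tuba4a, atgagggaatgc in Tuba8, atgcgcgagatc in Tubb2a, atgcgagagatc in Tubb2b, atgagggagatc in Tubb3, atgcgggaaatc in Tubb4a and atgagggaaatc in Tubb5, so the last of these codons was tgc in the alpha and atc in the beta genes. Ttc5 was higher (0.34 ± 0.10, adjusted p = 0.00612), and Cnot11 (-0.94 ± 0.10, adjusted p = 1.84e-06) and Scaper (-0.33 ± 0.11, adjusted p = 0.0141) were lower. Of these 3 genes, 1 was thus higher and 2 were lower, against 34.7% higher and 33.6% lower of all genes tested. Without Ezh2 cKO 1 the counts were 0 higher and 1 lower.

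**Figure D4:**
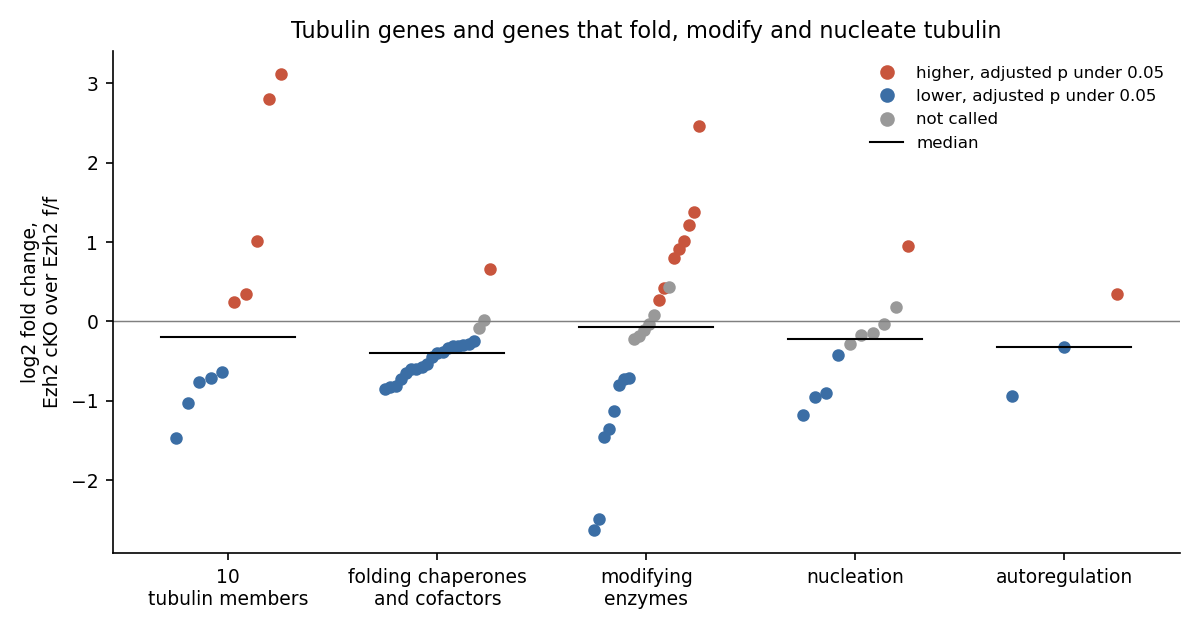
Log2 fold change (Ezh2 cKO over Ezh2 f/f, edgeR) of each tested gene among the 10 members and the folding, modifying, nucleation and autoregulation genes, coloured by call at an adjusted p of 0.05; black lines are medians. The folding genes lie mostly below 0 (median -0.39), and the members and the modifying enzymes lie on both sides.

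Promoters were read for 9 of the 10 genes from a RefSeq table on GRCm38.p6, from 250 bases before to 50 bases after the start of the gene. Tubb2b, the gene that fell most, had none there and is left out of what follows. The letters CCAAT, on either strand, were in the promoters of Tuba1a, Tuba1c, Tubb3 and Tubb5, all of which fell, and in none of those of Tuba1b, Tuba4a, Tuba8, Tubb2a and Tubb4a, which rose; 37.4% of all 32851 promoters of that length hold them. The promoters of Tuba1a (chr15:98953502-98953751, minus strand) and Tubb5 (chr17:35838302-35838551, minus strand) are shown up to the gene start, with CCAAT in capitals, as the most counted of these 4.
Tuba1a: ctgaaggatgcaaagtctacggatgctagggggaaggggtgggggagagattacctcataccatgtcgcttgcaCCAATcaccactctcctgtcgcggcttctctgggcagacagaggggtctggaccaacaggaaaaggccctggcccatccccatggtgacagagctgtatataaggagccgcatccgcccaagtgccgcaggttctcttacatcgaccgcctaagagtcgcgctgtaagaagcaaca
Tubb5: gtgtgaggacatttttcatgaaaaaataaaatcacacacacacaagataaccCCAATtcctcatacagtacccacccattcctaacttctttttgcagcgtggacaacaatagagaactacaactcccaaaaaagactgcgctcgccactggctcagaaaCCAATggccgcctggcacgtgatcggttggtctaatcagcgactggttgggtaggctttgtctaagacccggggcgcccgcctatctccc
Of the other letters searched on both strands, TATAAA was in Tubb2a alone (13.6% of all promoters) and ACAAAG in Tubb5 alone (18.7%). GGGCGG was in 6 of the 9 (35.7%), in Tuba1a, Tubb3 and Tubb5, which fell, and in Tuba1b, Tuba4a and Tubb2a, which rose. CANNTG was in 7 (72.3%), in Tuba1a, Tuba1c and Tubb5, which fell, and in Tuba1b, Tuba4a, Tuba8 and Tubb2a, which rose. The letters were chosen with the gene values known, and a match is a description of the sequence, not a site. Whether CCAAT goes with a lower level over all genes was not tested.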

How the data were processed

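RNA of 4 libraries, 2 Ezh2 f/f and 2 Ezh2 cKO, was analysed; groups came from the sample titles. The authors deposited raw read counts and FPKM values for 29224 genes. The submitters' processing notes name TopHat2 2.0.12, Bowtie2 2.2.3, HTSeq 0.6.0 and mm9; strand use, annotation and counting settings are not given in the sources used here. For 100% of genes, counts and FPKM in all 4 libraries implied the same whole-number length (within 0.01 base). The authors' columns of fold changes and p-values were not used, and 0 sample columns were left out.

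Counts were filtered with filterByExpr, scaled by TMM and tested by the quasi-likelihood test of edgeR 4.0.16 (R 4.3.3) with group as the only term. A standard error is the log2 fold change divided by the square root of its F statistic. Alternatives were DESeq2 1.42.0, other scalings and filters, limma 3.58.1 on log2(FPKM + 1) or log2(FPKM + 0.1), where folds of low genes are understated, the replicate number as a block, and each library left out in turn. Tests were tried on simulated data. Shares and windows were computed in Python 3.11.15. The coding ends of some alpha genes are not reported here.

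The members and lists were chosen with earlier results of these data known. All members and other tubulin genes are named; of each other list, up to 2 higher and 2 lower genes of smallest p and the highest by mean FPKM. Of the marker lists, genes were named from a fixed set where they touch a result. The lists for endothelial, mural, ependymal and choroid, and erythrocyte and platelet cells were also counted. In that order they had 2 higher and 1 lower of 6, 2 and 1 of 4, 1 and 3 of 5, and 2 and 0 of 4. The shares over all genes tested were 34.7% higher and 33.6% lower.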

Additional observations from a re-analysis of the deposited data

How the results depend on the processing

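For the 10 members, 136 of 137 fold changes under alternative settings kept their direction and their side of the threshold; the exception was Tubb2a in limma with no filter, given above, where the cause was not tested. Tuba8 was removed by the filter of a mean of at least 50 counts and by those on FPKM, and was at a log2 fold change of 0.77 on log2(FPKM + 1) with no filter, where the pseudocount is close to its level. The counts of members were 5 higher and 5 lower with each library left out in turn. With the replicate number as a replicate block they were also 5 and 5, and over all genes 5795 were higher and 5599 lower, against 5831 and 5650 without it; the deviations of same-numbered libraries correlated with r = 0.130, over 2 pairs that no label ties to a shared litter, and the block changed no call of a member and moved none of the counts of the related lists, where it was added after the data were seen, by over 1.5 times.

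Over all genes, DESeq2 called 4830 higher and 5043 lower, and leaving out a library gave 4677 to 5680 higher and 4756 to 5594 lower. Leaving out a library gave 0 to 2 lower genes among the other tubulins, 11 to 16 lower folding genes, 5 to 8 higher modifying enzymes, and 0 to 1 higher and 1 to 2 lower autoregulation genes. The shares whose libraries overlapped had no stable sign. The change for Tuba1c was 0.00434 percentage points, but -0.0450 from counts without gene length and -0.101 to 0.110 with a library left out. With the matched pseudogenes added to their member (an alternative chosen after the data were seen) it was -0.0739. The change for Tubb3 was 0.216, and -0.0954 to 0.527 with a library left out. It was -0.521 with all beta genes in the total and 1.55 from counts without gene length, with no overlap between genotypes in either. The other shares kept their sign, but some moved in size. Without gene length the change was 5.79 points for Tuba4a in place of 2.94, and -10.7 for Tuba1a in place of -7.98. For Tubb2a it was 10.8 in place of 13.7. From counts without gene length the alpha sum was 33.6% and the beta sum 43.1% lower. The 7 counts of Tuba8 in the controls limit the precision of its value.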
